A study of Mus musculus with 4 samples.

Results

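The cytochrome P450 family was described here as the mouse genes whose symbols follow the family's naming pattern, pseudogenes left out, and which held at least 50 unique molecular identifiers (UMIs, each standing for 1 captured transcript) summed over 4 kidney libraries. Of 27998 genes listed, 100 symbols matched, and 55 of them were members. Of the others, 36 stayed below the minimum and 9 were listed at 0. The members were thus chosen by their summed UMIs, which are given as a description only. The last member inside the minimum was Cyp2ab1 with 56 UMIs, and the first one outside was Cyp2b13 with 48 UMIs.

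P450 enzymes are haem proteins that insert an oxygen atom from molecular oxygen into fats, steroids, vitamins and foreign chemicals, and most sit in the membrane of the endoplasmic reticulum. Electrons reach them from the P450 oxidoreductase, or from ferredoxin in mitochondria. The kidney is known for several of their products. Cyp4a enzymes hydroxylate arachidonic acid at its far end to 20-HETE, a constrictor of renal vessels, while Cyp2j and Cyp2c enzymes turn it into epoxides. Cyp27b1 makes the active form of vitamin D and Cyp24a1 breaks it down. Many mouse P450 genes are known to be held at different levels in male and female kidneys. Cyp4a12a, Cyp4b1, Cyp2j5, Cyp2e1 and Cyp7b1 are higher in males, and Cyp4a14 is higher in females.

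Nuclei came from whole kidneys of C57BL/6 mice at post natal week 22, in 2 libraries from mice treated with losartan, an angiotensin receptor antagonist given against high blood pressure, and 2 libraries from untreated mice. Kidneys were flash frozen, nuclei were released with a kit, and transcripts were barcoded nucleus by nucleus on the 10x Genomics Chromium platform. The sources used here give no dose, route, duration or sex. No label says that the libraries came from separate animals, so p-values measure the spread between these libraries, part of which may be technical. Both groups carried a male pattern: Xist, the transcript of the inactive X chromosome, stood at 0.772 to 1.07 CPM (the UMIs of a gene scaled to a common library total), and the Y-linked gene Uty at 283 to 299.8 CPM. Libraries held 42290414 to 59078762 UMIs in 9326 to 10342 barcodes, 21 to 29 barcodes were shared by any pair of libraries, and 36003 of 39654 nuclei were kept. Of 35 clusters, 24 could be named by their markers, in 15 classes, and 4098 nuclei in 11 clusters stayed unnamed. Class names stand for likeness to marker genes. Proximal tubule nuclei numbered 12168, of which 3652 were S1-like, 3135 S2-like and 2461 S3-like, after the 3 successive segments of that tubule. The other 2920 could not be placed in a segment. Segments were named in each library separately. S1-like and S2-like nuclei numbered 1149 and 1079 in losartan library 1 and 927 and 1234 in losartan library 2. They numbered 669 and 488 in untreated library 1 and 907 and 334 in untreated library 2. The part of this uneven naming in the segment values was not tested. One cluster of the class, cluster 6, stood apart: 1054 of its 1089 nuclei came from losartan library 1. The class of injured proximal tubule held 45 and 151 nuclei in the losartan libraries and 413 and 454 in the untreated libraries. P450 genes whose symbols matched the pattern were kept out of the genes used for clustering. Cyp51, whose symbol has no subfamily letter, did not match, so it was neither a member nor held back. It was a leading gene of an S3-like cluster in untreated library 1. The proximal tubule class held 45.7% and 36.3% of kept nuclei in the losartan libraries, against 31.1% and 21.9% in the untreated libraries.

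The members lay in a few places of the genome (GRCm38, GENCODE vM21 annotation). Of the 55, 37 sat in 7 loci where a member's neighbour was another member. The Cyp4a/Cyp4b/Cyp4x locus on chromosome 4 (115106323 to 115647723) held 8 members, the Cyp2j locus on the same chromosome (96027534 to 96664154) held 7, and the Cyp2a/Cyp2b/Cyp2f/Cyp2s/Cyp2t locus on chromosome 7 (25802475 to 27158668) held 7. A Cyp2c locus on chromosome 19 (39007019 to 39886799) held 5, and a Cyp2d locus on chromosome 15 (82370527 to 82794294) held 4. A few members had a near-identical gene within the family, whose genes alone were compared. In the last 500 bases of their transcripts, where 3′ reads fall, Cyp4a12a and Cyp4a12b were 97.78% identical over the 496 bases that aligned. Cyp2c68 was 98.6% identical to Cyp2c40, 97.8% to Cyp2c67 and 96.51% to Cyp2c69, and Cyp2c69 was 97.09% identical to Cyp2c40 and 96.51% to Cyp2c67. Counts could be split within the Cyp4a12 pair and among these 4 Cyp2c genes. For 11 members a gene on the opposite strand overlapped. The sources used here do not give the strand setting of the counting. For these members, Cyp24a1 and Cyp2d9 among them, it is thus not known whether reads of both genes were told apart. Some members, such as Cyp2j13, Cyp7b1 and Cyp2d9, overlapped a gene on their own strand, where strand cannot part the reads.

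Upstream sequence is shown for the 5 members that passed a test with losartan in any of the comparisons below. Cyp2d26 passed the test of a difference between segments. The other 4 passed only in classes outside the proximal tubule, where their levels are not read as expression by those classes. RefSeq promoter sequence of build GRCm38.p6 was matched for 40 of the 55 members. Each sequence is read 5′ to 3′ on the gene's own strand and stops before the first base of any annotated transcript. Capitals mark matches, on either strand, to AGAACA (a half-site of the androgen and glucocorticoid receptors), CAAAGNNCA (the core of repeats bound by HNF4 and PPAR factors), GTTAAT (an HNF1 half-site) or TTCNNNGAA (a STAT site).
Cyp2d26, chr15:82794295-82794495, minus strand: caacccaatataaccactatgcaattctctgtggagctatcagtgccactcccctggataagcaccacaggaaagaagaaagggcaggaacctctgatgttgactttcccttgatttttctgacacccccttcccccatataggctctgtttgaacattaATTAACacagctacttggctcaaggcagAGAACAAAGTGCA
Cyp4b1, chr4:115647724-115647971, minus strand: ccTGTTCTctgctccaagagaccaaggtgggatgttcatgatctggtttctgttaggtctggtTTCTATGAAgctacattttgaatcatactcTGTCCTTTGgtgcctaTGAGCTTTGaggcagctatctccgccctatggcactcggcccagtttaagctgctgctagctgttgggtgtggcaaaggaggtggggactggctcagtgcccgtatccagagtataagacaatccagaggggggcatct
Cyp2j5, chr4:96664155-96664369, minus strand: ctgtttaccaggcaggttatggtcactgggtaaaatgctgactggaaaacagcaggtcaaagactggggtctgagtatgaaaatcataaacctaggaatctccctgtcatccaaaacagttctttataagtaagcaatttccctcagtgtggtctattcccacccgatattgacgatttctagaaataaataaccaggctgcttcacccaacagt
Cyp2j13, chr4:96077547-96077790, minus strand: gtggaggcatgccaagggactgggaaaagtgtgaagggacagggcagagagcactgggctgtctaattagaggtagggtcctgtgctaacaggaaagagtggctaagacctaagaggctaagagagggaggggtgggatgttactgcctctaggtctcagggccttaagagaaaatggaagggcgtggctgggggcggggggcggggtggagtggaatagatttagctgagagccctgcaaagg
Cyp2e1, chr7:140763569-140763738, plus strand: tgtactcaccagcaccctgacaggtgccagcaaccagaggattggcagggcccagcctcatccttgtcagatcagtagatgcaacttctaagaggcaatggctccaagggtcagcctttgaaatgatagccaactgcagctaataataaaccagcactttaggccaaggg
In Cyp2d26 the AGAACA match (62 to 57 bases before the RefSeq start) and the CAAAGNNCA match (58 to 50 bases before it) overlapped, and a GTTAAT match lay 90 to 85 bases before it on the opposite strand. Over all 27025 promoters cut to the same 201 bases, 13.4% held AGAACA, 4.44% held CAAAGNNCA and 5.48% held GTTAAT. The Cyp4b1 window held an AGAACA match, a pair of CAAAGNNCA matches and a TTCNNNGAA match, and the shares over all promoters cut to its 248 bases were 16.1%, 5.5% and 7.06%. The Cyp2j5, Cyp2j13 and Cyp2e1 windows held none of the 4 motifs. Shares for AGAACA at their lengths of 170, 215 and 244 bases were 11.5%, 14.2% and 15.9%. A match describes these letters only.

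The family's UMIs were concentrated in a few genes. Of 891379 family UMIs, 209259 belonged to Cyp4b1 (ENSMUSG00000028713, chromosome 4, 115624725 to 115647723), which hydroxylates medium-chain fatty acids and foreign chemicals, and 182715 to Cyp2j5 (ENSMUSG00000052520, chromosome 4, 96628773 to 96664154), an arachidonic acid epoxygenase of the kidney. These 2 genes held 43.97% of the family's UMIs and the top 10 held 83.42%. The other 8 were Cyp2j13, Cyp7b1, Cyp2j11, Cyp2e1, Cyp24a1, Cyp4a31, Cyp2d12 and Cyp4a10. UMIs are not corrected for transcript length, so the order is one of counts, not of transcript levels. All levels below are CPM, taken over all UMIs of the same group of nuclei in the same library.

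The mean level over the 4 libraries was highest in a proximal tubule segment for 29 of the 55 members, in injured proximal tubule nuclei for 3 and in another class for 23, among 16 groups of nuclei. For 23 members the same group was highest in all 4 libraries. These levels carry no test, because the groups were made from the same nuclei. Within the tubule 41 members had at least 100 UMIs and were ranked by segment: 13 were highest in S1, 17 in S2 and 11 in S3, and 19 of the 41 had the same highest segment in all 4 libraries. With coarser clusters in the proximal tubule 33 of the 41 kept their highest segment.

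**Figure D1:**
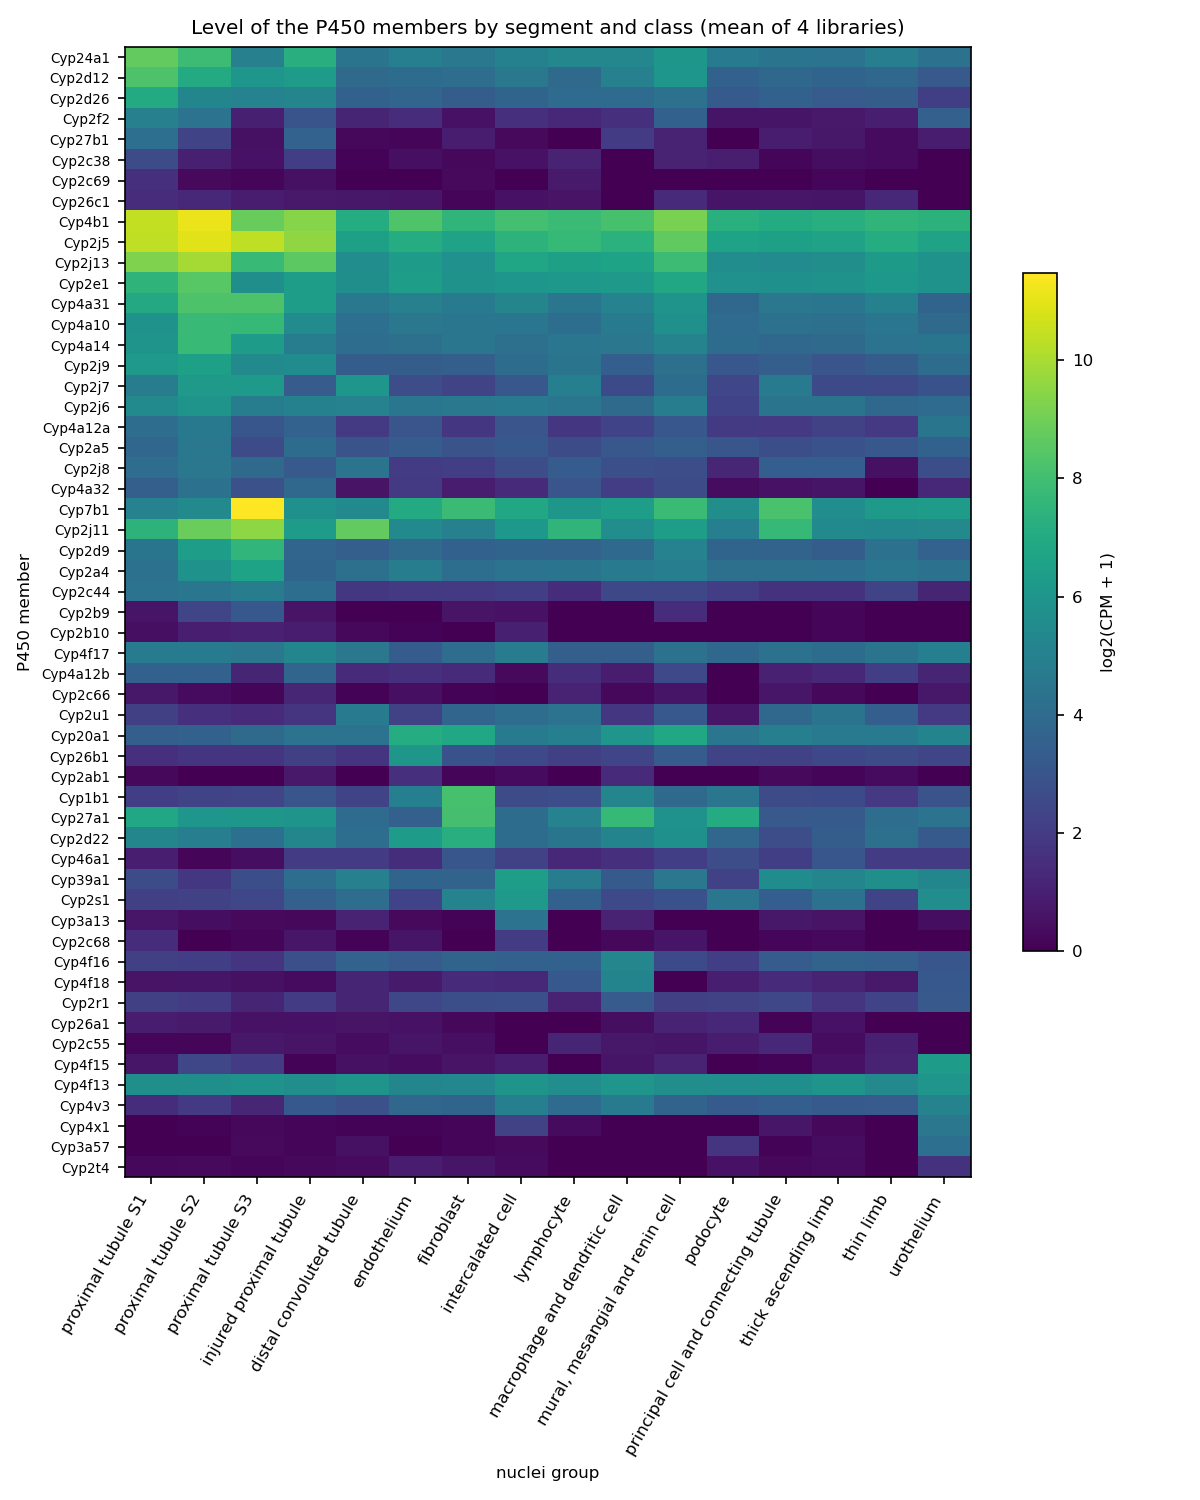
Level of each of the 55 P450 members (rows) in 16 groups of nuclei (columns), as log2(CPM + 1) of the mean of 4 libraries, with rows sorted by the group in which the member was highest. The 29 members at the top are highest in a proximal tubule segment, with Cyp4b1 and Cyp2j5 bright in S1 and S2 and Cyp7b1 bright in S3, and the lower rows are highest elsewhere.

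Most of the abundant fatty acid hydroxylases of the tubule had their highest mean in S2. Cyp4b1 stood in S2 at 3048 and 2427 CPM in losartan libraries and 2084 and 1538 CPM in untreated libraries, above S1 (1370.0 ± 330.0 CPM, SD, n = 4 libraries) and S3 (443 ± 189 CPM). In S2 both losartan libraries stood above both untreated ones. Cyp4a14, a lauric acid hydroxylase, averaged 209 ± 137 CPM in S2, 60.2 ± 64.1 CPM in S1 and 77.5 ± 46.2 CPM in S3. In every segment both losartan libraries stood below both untreated ones. Cyp4a10 (218 ± 51.9 CPM in S2, 207 ± 53.0 CPM in S3) and Cyp4a31 (312 ± 53.2 CPM and 303 ± 57.7 CPM) had like means in S2 and S3. Both were lower in S1, at 57.2 ± 31.8 CPM for Cyp4a10 and 119.5 ± 44.6 CPM for Cyp4a31. In losartan libraries Cyp4a31 stood higher in S3 (261 and 388 CPM) than in S2 (242 and 303 CPM). In untreated libraries it stood lower in S3 (272 and 293 CPM) than in S2 (338 and 365 CPM). Cyp4a12a, the main maker of 20-HETE in male mice, averaged 24.0 ± 25.6 CPM in S2 and 16.4 ± 12.1 CPM in S1. Its near-identical neighbour Cyp4a12b averaged 10.8 ± 4.34 CPM in S2 and 10.9 ± 2.99 CPM in S1, and both were lowest in S3, at 7.33 ± 11.3 and 1.29 ± 0.773 CPM.

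Of 9 ranked members of the epoxygenase families, 6 had their highest mean in S2, 2 in S3 and 1 in S1. Cyp2j5 averaged 1975 ± 113 CPM in S2, 1322 ± 157 CPM in S1 and 1311 ± 173 CPM in S3, and S2 was highest in all 4 libraries. Cyp2j13, a close relative, averaged 979 ± 343, 613 ± 119 and 215 ± 123 CPM in S2, S1 and S3. Cyp2j11 ran the other way along the tubule. Its S3 level was 726 ± 68.9 CPM, against 466 ± 114 CPM in S2 and 169 ± 45.3 CPM in S1, and the order was the same in all 4 libraries. Cyp2c44 was the other member highest in S3, at 28.2 ± 10.1 CPM, against 21.6 ± 4.39 CPM in S2 and 19.4 ± 5.10 CPM in S1. Its S3 over S1 ratio was 2.0 and 2.16 in untreated libraries and 0.845 and 1.19 in losartan libraries. Cyp2c38 was a low member with an S1 bias, at 5.25 ± 3.39 CPM in S1 and 0.488 ± 0.614 CPM in S3.

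The vitamin D enzymes that work in the kidney lay in S1. Cyp24a1 (ENSMUSG00000038567, chromosome 2, 170482708 to 170497145), which inactivates vitamin D, stood in S1 at 552 and 341 CPM in losartan libraries and 453 and 308 CPM in untreated libraries. In S3 it stood at 26.1 and 14.7 CPM in losartan libraries and 33.6 and 48.9 CPM in untreated libraries, an S3 over S1 ratio of means of 0.0745. In untreated library 2 its S2 level (502 CPM) was above its S1 level, unlike in the other libraries. That library's S1-like group took in a cluster of 380 nuclei with a small lead of S1 markers (score 0.59, against 0.21 for S2). The part of this naming in the Cyp24a1 levels was not tested. Cyp27b1 (ENSMUSG00000006724, chromosome 10, 127048250 to 127053006), the activating enzyme, stood in S1 at 11.4 and 29.9 CPM in losartan libraries and 16.2 and 11.6 CPM in untreated libraries. It averaged 4.12 ± 2.83 CPM in S2, and only 6 UMIs fell in S3 nuclei of all libraries, so no S3 level can be read. Cyp2r1, which makes the circulating 25-hydroxylated form, was low throughout, at 3.48 ± 0.561 CPM in S1 and 1.26 ± 0.629 CPM in S3. Cyp27a1, a mitochondrial sterol hydroxylase that can also act on vitamin D, averaged 113 ± 11.6 CPM in S1, 64.1 ± 4.13 CPM in S2 and 65.5 ± 4.18 CPM in S3.

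Among the ranked members the largest ratio between segments belonged to Cyp7b1 (ENSMUSG00000039519, chromosome 3, 18071950 to 18243338), which hydroxylates oxysterols and the steroid precursor DHEA. It stood in S3 at 3951 and 3801 CPM in losartan libraries and 1768 and 1857 CPM in untreated libraries. Against this, its S1 level was 33.3 ± 15.3 CPM and its S2 level 43.1 ± 17.8 CPM. The S3 over S1 ratio was 91.9 and 79.4 in losartan libraries and 63.0 and 131 in untreated libraries, so S3 stood far above the other segments in every library.

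Among the enzymes of families 1 to 3 that are known mainly for foreign chemicals and steroids, members of the same locus differed in their segment. At the Cyp2d locus Cyp2d12 and Cyp2d26 were highest in S1 (309 ± 109 and 129.8 ± 17.0 CPM), with 64.3 ± 43.1 and 33.5 ± 24.6 CPM in S3. Cyp2d9 was highest in S3 (185 ± 31.0 CPM), with 20.7 ± 5.40 CPM in S1. At the locus on chromosome 7, Cyp2a4, a testosterone hydroxylase, and Cyp2b9 were highest in S3, at 98.3 ± 10.4 and 7.85 ± 3.70 CPM. Their S1 levels were 18.7 ± 5.98 and 0.587 ± 0.564 CPM. Cyp2f2, which oxidises naphthalene, was highest in S1 in all 4 libraries (31.2 ± 7.91 CPM), against 0.995 ± 0.664 CPM in S3. Cyp2e1, which oxidises ethanol and acetone, averaged 365 ± 156 CPM in S2, 174 ± 88.3 CPM in S1 and 51.0 ± 25.1 CPM in S3.

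**Figure D2:**
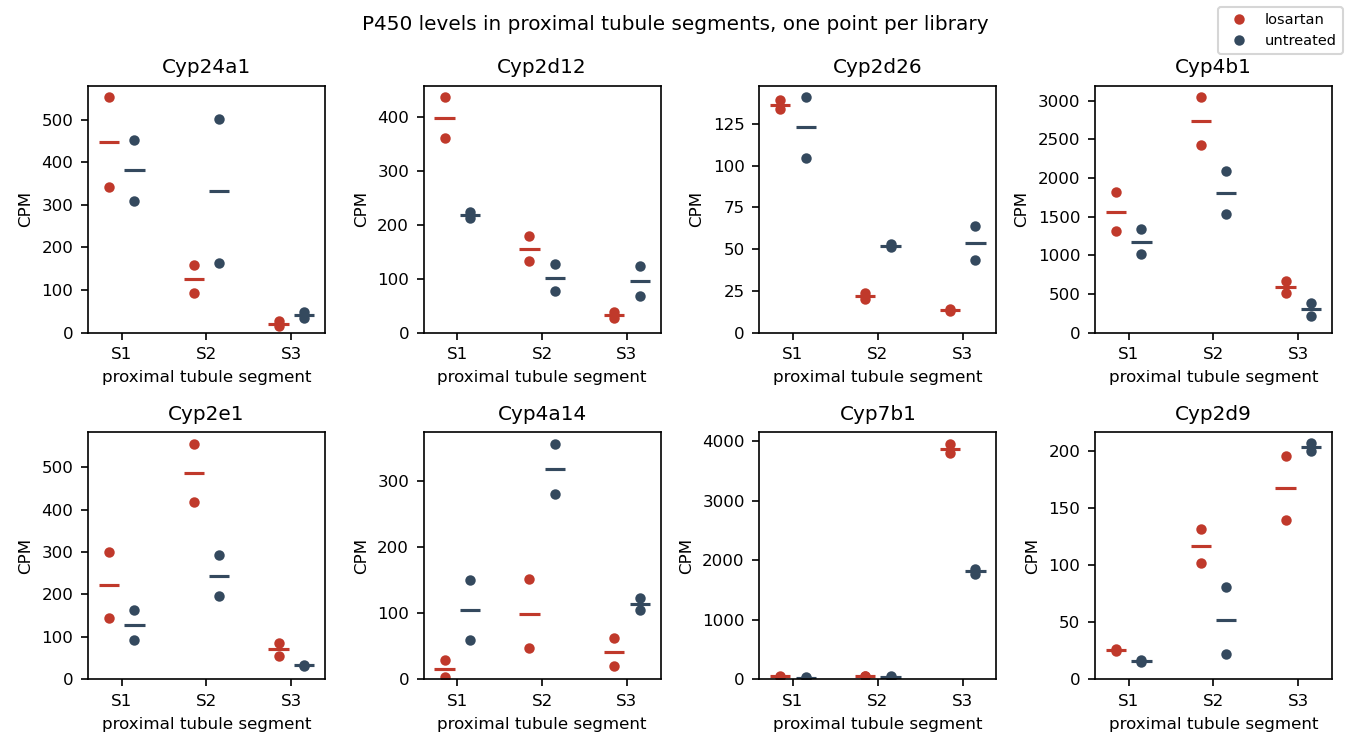
Level of 8 P450 members in CPM (vertical axes, each starting at 0) in S1, S2 and S3 nuclei (horizontal axes), with 1 point per library, losartan in red left of untreated in blue, and a dash at each group's mean. Cyp24a1, Cyp2d12 and Cyp2d26 run down from S1 in most libraries, Cyp4b1, Cyp2e1 and Cyp4a14 peak in S2, and Cyp7b1 and Cyp2d9 peak in S3, where the losartan libraries hold Cyp7b1 at 3951 and 3801 CPM and the untreated libraries at 1768 and 1857 CPM.

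Genes of the proximal tubule were counted in every other class too, which sets a floor for reading P450 levels there. A gauge of 10 proximal tubule genes (Kap, Miox, Gatm and others) stood in other classes at medians of 9.20% of its proximal tubule level in urothelium to 37.4% in mural, mesangial and renin cells, and 45.1% in injured proximal tubule. Outside injured proximal tubule, a member at a like share of its tubule level is read as background, such as Cyp4b1 in urothelium at 10.5%. Injured proximal tubule nuclei were next most like S1 by their markers (score 1.17). Gauge RNA there can be their own and sets no floor. Cyp27a1 there, at 73.1% of its tubule level, stood within the gauge's range of 25.3% to 84.5% and is not read as background. Cyp2j11 in lymphocytes, at 44.1%, stood within the gauge's range of 13.0% to 67.6%. The members described next had a mean at or above that of the proximal tubule.

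Stromal and vascular classes held a set of their own. Cyp1b1, which metabolises oestrogens and aromatic hydrocarbons, stood in fibroblasts at 217 and 357 CPM in losartan libraries and 281 and 253 CPM in untreated libraries, 75.9-fold its proximal tubule level. The treatment groups overlapped. Cyp27a1 and Cyp2d22 were also highest in fibroblasts, at 273 ± 91.0 and 143 ± 17.0 CPM (n = 4 libraries). Cyp26b1, which breaks down retinoic acid, stood in endothelium at 95.1 and 58.8 CPM in losartan libraries and 17.3 and 98.3 CPM in untreated libraries, 33.4-fold its proximal tubule level, and untreated library 1 stood below the other 3. Cyp20a1, whose substrate is unknown, averaged 139 ± 7.83 CPM in endothelium, 116 ± 19.9 CPM in fibroblasts and 113 ± 27.9 CPM in mural, mesangial and renin cells. These levels did not differ beyond their spread.

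In the distal nephron and collecting duct other members were found. Cyp2u1, a long-chain fatty acid hydroxylase, averaged 26.6 ± 4.56 CPM in the distal convoluted tubule and 20.2 ± 3.86 CPM in the thick ascending limb, 12.2-fold its proximal tubule level at the first of these sites. Cyp2j11 had a further high level in the distal convoluted tubule, at 487 and 483 CPM in losartan libraries and 338 and 347.5 CPM in untreated libraries. Its neighbours Cyp2j7 and Cyp2j8 stood there at 65.1 ± 25.8 and 20.4 ± 6.95 CPM. Cyp39a1, which hydroxylates 24-hydroxycholesterol, was highest in intercalated cells in every library (84.0 ± 5.80 CPM), then in thin limb (51.0 ± 6.96 CPM) and in principal cell and connecting tubule nuclei (46.7 ± 6.45 CPM), the last at 11.3-fold and the thin limb at 12.4-fold its proximal tubule level. Cyp2s1 (73.3 ± 12.0 CPM) and Cyp3a13, a drug-oxidising enzyme (19.8 ± 7.30 CPM, 53.0-fold its proximal tubule level), were highest in intercalated cells as well. Cyp46a1, the cholesterol 24-hydroxylase known from brain, was low, at 7.33 ± 1.69 CPM in the thick ascending limb, 15.8-fold its proximal tubule level, and 7.46 ± 1.55 CPM in fibroblasts.

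In the remaining classes, macrophages and dendritic cells held Cyp4f18 and Cyp4f16, fatty acid hydroxylases of a subfamily known to inactivate leukotriene B4. Cyp4f18 stood there at 10.4 and 24.9 CPM in losartan libraries and 54.9 and 49.5 CPM in untreated libraries, with 4 UMIs in losartan library 1. Cyp4f16 stood at 25.9 and 36.3 CPM in losartan libraries and 41.5 and 51.7 CPM in untreated libraries. For both, each losartan library stood below each untreated one, from few UMIs. Podocytes held Cyp27a1 at 132 ± 27.4 CPM, 1.61-fold its proximal tubule level. Urothelium held Cyp4f15, at 89.7 and 76.7 CPM in losartan libraries and 9.83 and 137 CPM in untreated libraries. With 1 UMI in untreated library 1, that library's level is uncertain. Cyp4f13 stood at 63.2 ± 18.4 CPM there, 119% of its proximal tubule level, and its lowest share was 71.2%, in endothelium, where the gauge's range reached 88.4%.

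The comparison of treated with untreated kidneys asked which of these enzymes differed with losartan. Counts were summed per library and fitted across all genes with edgeR's quasi-likelihood test, with p-values adjusted over all genes of the fit by the Benjamini-Hochberg method and called under 0.05. CPM in the treatment comparisons are scaled by the TMM method and differ slightly from the levels above. In the whole kidney 54 members could be tested and 0 were called, where the background was 0% of all genes. At an unadjusted p under 0.05 there were 24 members, 19 higher and 5 lower with losartan, against a background of 21.9% of genes. DESeq2 called 15 members, 13 higher and 2 lower, against 8.91% of genes. Both losartan libraries stood above both untreated ones for 22 members (background 27.8%) and below them for 14 (background 29.1%). The median log2 change was 0.34 over the 54 members and -0.01 over all genes.

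In the whole kidney Cyp2d12, the abundant S1 member, had the smallest p. It stood at 145 and 152 CPM in losartan libraries and 62.9 and 56.1 CPM in untreated libraries, a log2 change of 1.32 ± 0.11 (SE, adjusted p = 0.110). Cyp2j13 stood at 758 and 520.3 CPM in losartan libraries and 237 and 189 CPM in untreated libraries (log2 1.59 ± 0.23, adjusted p = 0.110). Neither overlapped between groups. Cyp4b1 (log2 1.58 ± 0.28), Cyp2e1 (1.82 ± 0.31) and Cyp7b1 (1.0 ± 0.20) followed, with adjusted p of 0.110 to 0.117. On the lower side the 5 with the smallest p were Cyp4f18 (log2 -1.26 ± 0.25), Cyp4f16 (-0.74 ± 0.15), Cyp4v3 (-0.62 ± 0.19), Cyp2c38 (-0.89 ± 0.29) and Cyp4a14 (-1.48 ± 0.55), with adjusted p of 0.117 to 0.216. The proximal tubule, which holds most of the higher members, made up more of the losartan libraries, as given above. Macrophages and dendritic cells, which hold Cyp4f16 and Cyp4f18, numbered 98 and 123 nuclei in losartan libraries and 241 and 393 in untreated libraries. Fewer cells of a type and less RNA per cell cannot be told apart in such sums.

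Within proximal tubule nuclei 44 members could be tested and 0 were called (background 0%). At an unadjusted p under 0.05 there were 17, 11 higher and 6 lower, against 12.5% of all genes, and DESeq2 called 8 members, 7 higher and 1 lower, against 1.97%. The groups did not overlap for 24 members, 15 higher (background 21.5%) and 9 lower (background 23.3%). The median log2 change was 0.09 over the 44 members and -0.01 over all genes, so the members' values went both ways.

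The 5 members with the smallest p on the higher side were Cyp2j13, Cyp2e1, Cyp4a12a, Cyp4b1 and Cyp2a5. Cyp2j13 stood at 1056 and 830.0 CPM in proximal tubule nuclei of losartan libraries and 469 and 486 CPM in untreated libraries (log2 0.98 ± 0.14, adjusted p = 0.193). Cyp4b1 stood at 2452 and 1708 CPM in losartan libraries and 1029 and 1149 CPM in untreated libraries (log2 0.93 ± 0.19, adjusted p = 0.219). Losartan library 1 was the higher of the treated pair for both, and neither gene overlapped between groups. Cyp2e1 stood at 417 and 262 CPM in losartan libraries and 147 and 138 CPM in untreated libraries (log2 1.25 ± 0.22, adjusted p = 0.205). Cyp4a12a stood at 43.4 and 18.3 CPM in losartan libraries and 7.61 and 3.99 CPM in untreated libraries (log2 2.42 ± 0.49, adjusted p = 0.219), while Cyp4a12b, which shares its 3′ end, stood at 11.2 and 10.6 CPM in losartan libraries and 7.76 and 9.39 CPM in untreated libraries (log2 0.34 ± 0.18, adjusted p = 0.498). Cyp2a5, which oxidises coumarin and nicotine, stood at 27.5 and 19.4 CPM in losartan libraries and 11.1 and 6.51 CPM in untreated libraries (log2 1.42 ± 0.30, adjusted p = 0.219). None of these groups overlapped. Of the 5 members named above as known to be higher in male kidneys, Cyp4a12a, Cyp4b1 and Cyp2e1 are among these. For the others, Cyp7b1 stood at 669 and 817 CPM in losartan libraries and 504 and 409 CPM in untreated libraries (log2 0.70 ± 0.16, adjusted p = 0.234). Cyp2j5 stood at 1765 and 1551 CPM in losartan libraries and 1362 and 1562 CPM in untreated libraries, which overlapped (log2 0.18 ± 0.13, adjusted p = 0.645).

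Cyp4a14, known as female-biased, had the largest lower value. It stood at 24.2 and 88.3 CPM in losartan libraries and 223 and 214 CPM in untreated libraries (log2 -1.96 ± 0.55, adjusted p = 0.271). Losartan library 1 stood far below losartan library 2, and without it the log2 change was -1.30 with an adjusted p of 0.0205, while without losartan library 2 it was -3.17 with an adjusted p of 3.69e-05. Cyp2d22 stood at 16.6 and 24.4 CPM in losartan libraries and 34.8 and 42.8 CPM in untreated libraries (log2 -0.93 ± 0.22, adjusted p = 0.241). The other members of the lower side were Cyp2c38 (log2 -1.28 ± 0.28), Cyp4f16 (-1.01 ± 0.25) and Cyp2s1 (-0.93 ± 0.26), all under 6 CPM, with adjusted p of 0.228 to 0.265. The related Cyp4a10 had overlapping groups, at 96.1 and 174 CPM in losartan libraries and 192 and 168 CPM in untreated libraries (log2 -0.41 ± 0.27, adjusted p = 0.597).

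The 4 vitamin D enzymes gave no call in proximal tubule nuclei, none at an unadjusted p under 0.05 and none by DESeq2. Cyp24a1 stood at 285 and 173 CPM in losartan libraries and 228 and 263 CPM in untreated libraries (log2 -0.10 ± 0.24). Cyp27b1 stood at 4.27 and 10.4 CPM in losartan libraries and 8.92 and 6.58 CPM in untreated libraries (log2 -0.09 ± 0.43), and the groups of both genes overlapped. Cyp2r1 had a log2 change of -0.02 ± 0.28. Cyp27a1, at 86.6 and 86.3 CPM in losartan libraries and 77.4 and 79.2 CPM in untreated libraries, had a log2 change of 0.14 ± 0.09 and no overlap. Their adjusted p ran from 0.571 to 0.984.

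**Figure D3:**
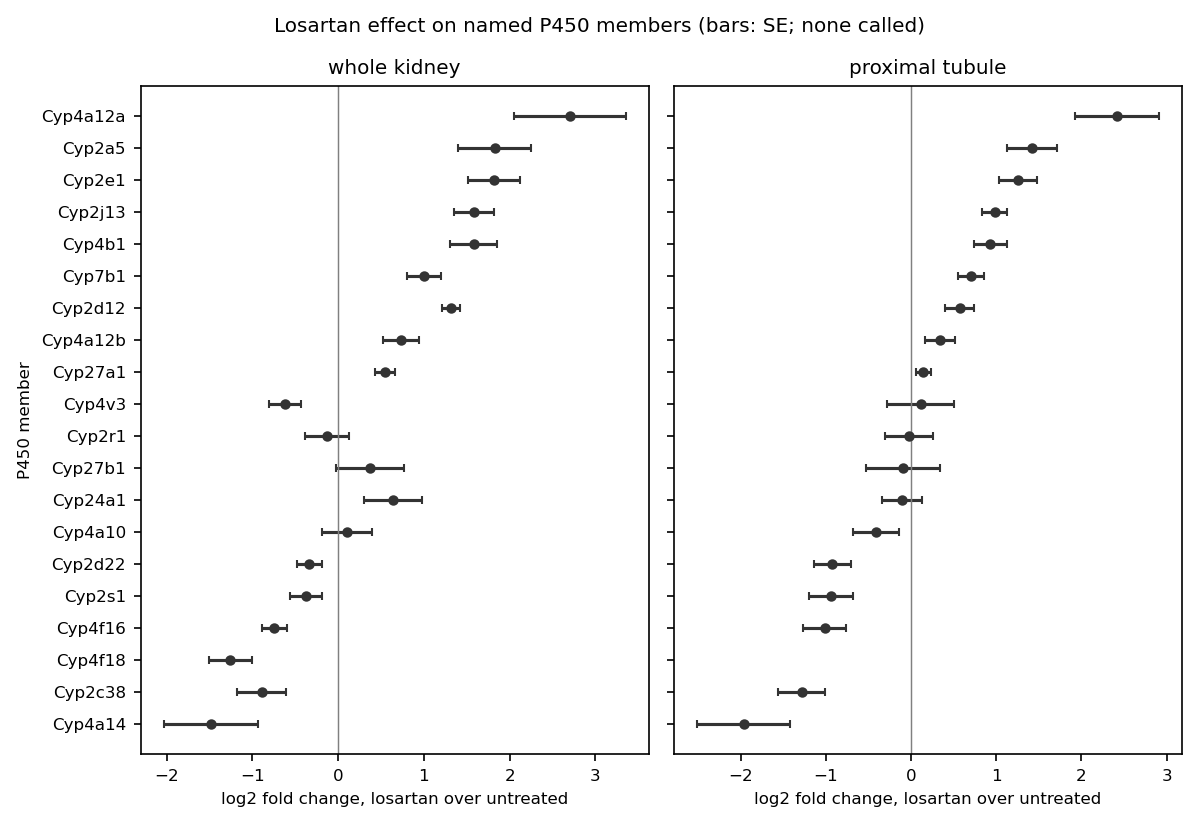
Log2 fold change, losartan over untreated, of 20 named P450 members (rows) with bars of 1 SE from the edgeR fit, in the whole kidney (left panel) and in proximal tubule nuclei (right panel, with no point for Cyp4f18, which was too low to test there). Cyp4a12a lies farthest right in both panels (2.71 and 2.42) and Cyp4a14 farthest left (-1.48 and -1.96), and no member passed the test.

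By role, against 12.5% of all genes, 5 of 13 tested fatty acid hydroxylases had an unadjusted p under 0.05 in proximal tubule nuclei (3 higher and 2 lower), 2 of 10 epoxygenases (1 higher and 1 lower), 1 of 2 bile acid and oxysterol enzymes (higher), 8 of 11 enzymes of families 1 to 3 (5 higher and 3 lower), 1 of 3 retinoic acid hydroxylases (higher), 0 of 4 vitamin D enzymes and 0 of 1 member with no known substrate. Other genes known for sex differences in the mouse kidney were measured in the same nuclei. Of 10 such genes outside the family 8 had an unadjusted p under 0.05, 5 of them higher and 3 lower, and none was called, with DESeq2 calling 4. Among the 5 were Kap, an androgen-driven tubule transcript (2897 and 2741 CPM in losartan libraries, 1361 and 1332 CPM in untreated libraries, log2 1.07), and Slco1a1, an organic anion transporter (log2 2.74). Among the 3 were the prolactin receptor Prlr (log2 -1.71) and the transporter Slc7a12 (log2 -1.34). These genes are named after their values were seen. The list was chosen with earlier results of these data known, so its counts are a description only. It shares Kap with the proximal tubule RNA gauge and Prlr with the regulators below. All 7 testable genes of an injured tubule list were lower at an unadjusted p under 0.05 (median log2 -1.50, DESeq2 calls 4), and the proximal tubule RNA gauge had a median log2 change of 0.25. The part of these in the P450 values was not tested.

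The pathway around the enzymes was measured with lists, whose genes are named here after their values were seen. The lists were also chosen with earlier results of these data known. Their counts are to be read against 12.5% of all genes at an unadjusted p under 0.05, 0% called by edgeR and 1.97% called by DESeq2 in proximal tubule nuclei. Of 9 testable redox partners, which feed electrons to P450s, none was called in proximal tubule nuclei by edgeR or DESeq2, and 1 had an unadjusted p under 0.05, the cytochrome b5 gene Cyb5a (log2 0.33). Of 12 genes of haem synthesis and breakdown none was called by either tool, and 1 had an unadjusted p under 0.05, Cpox, which works late in haem synthesis (log2 0.42). Among 30 regulators none was called by edgeR, DESeq2 called 1, and 6 had an unadjusted p under 0.05. These 6 were Nr1h4, the bile acid receptor FXR (log2 0.59), Esr1 (0.26), Tef (0.28), Nfil3 (-0.60), the xenobiotic receptor Nr1i3 (-0.94) and Prlr. Among 9 testable partners that handle epoxides and eicosanoids, none was called by edgeR, DESeq2 called 1, and 3 had an unadjusted p under 0.05. Ephx1, the microsomal epoxide hydrolase, stood at 6.82 and 14.5 CPM in losartan libraries and 35.5 and 32.6 CPM in untreated libraries (log2 -1.69, adjusted p = 0.219). Of 12 vitamin D handling genes none was called by either tool, and 2 had an unadjusted p under 0.05, Slc34a3 (log2 0.74) and Calb1 (-0.60).

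Segment by segment, no member was called. In S1, 0 of 40 members passed (background 0%), 11 had an unadjusted p under 0.05 (background 6.88%) and DESeq2 called 1 (background 0.153%). In S2, 0 of 38 passed (background 0%), 15 had an unadjusted p under 0.05 (background 14%) and DESeq2 called 3 (background 0.806%). In S3, 0 of 32 passed (background 0.0249%), 12 had an unadjusted p under 0.05 (background 7.56%) and DESeq2 called 6 (background 0.689%).

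The DESeq2 call in S1 was Cyp2d12, at 376 and 441 CPM in losartan libraries and 209 and 220.2 CPM in untreated libraries (log2 0.93 ± 0.14, edgeR adjusted p = 0.633). With it on the higher side in S1 were Cyp2a4 (log2 0.86 ± 0.20), Cyp2a5 (1.31 ± 0.31), Cyp26b1 (2.07 ± 0.50, under 4 CPM in every library) and Cyp4a12a (1.77 ± 0.43). On the lower side were Cyp4a14 (-2.70 ± 0.84), Cyp4f16 (-1.37 ± 0.42), Cyp2c38 (-1.35 ± 0.52), Cyp2d22 (-0.43 ± 0.21) and Cyp4a31 (-0.60 ± 0.30). Their adjusted p in S1 ran from 0.633 to 0.772.

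In S2, Cyp2d26 had the smallest p, at 20.9 and 24.5 CPM in losartan libraries and 53.9 and 48.2 CPM in untreated libraries (log2 -1.17 ± 0.16, adjusted p = 0.1595). Below it on the same side were Cyp2d22 (-1.39 ± 0.36), Cyp2s1 (-1.58 ± 0.41), Cyp4a14 (-1.60 ± 0.49) and Cyp27b1 (-1.69 ± 0.58, with 5 UMIs in the library that held least). On the higher side were Cyp2e1 (1.06 ± 0.25), Cyp4a12a (2.57 ± 0.71), Cyp2a5 (1.27 ± 0.37), Cyp4b1 (0.66 ± 0.24) and Cyp2j13 (0.81 ± 0.31). Adjusted p of these ran from 0.1595 to 0.321.

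In S3, Cyp7b1 had the smallest p, at 4106 and 3917 CPM in losartan libraries and 1701 and 1838 CPM in untreated libraries (log2 1.18 ± 0.14, adjusted p = 0.110). Both losartan libraries stood above both untreated ones. Slc7a13 and Acsm3, among the markers used to name S3, were themselves higher in proximal tubule nuclei of losartan libraries (log2 0.92 and 1.79). Slc7a12 and Prlr, leading genes of the S3-like cluster, were lower there, as given above. Values of the other S3 markers are not given here. The part of these genes in the S3 values was not tested. Cyp2j13 (1.49 ± 0.24), Cyp2e1 (1.21 ± 0.24), Cyp4b1 (1.04 ± 0.29) and Cyp20a1 (0.88 ± 0.28) were the others on the higher side. Among the lower ones, Cyp2d26 stood at 13.4 and 14.3 CPM in losartan libraries and 61.3 and 42.9 CPM in untreated libraries (log2 -1.91 ± 0.23, adjusted p = 0.112). Cyp2d12 stood at 28.3 and 40.0 CPM in losartan libraries and 64.9 and 123 CPM in untreated libraries (log2 -1.45 ± 0.33, adjusted p = 0.349). Cyp2d22 (-1.38 ± 0.28), Cyp4a14 (-1.39 ± 0.47) and Cyp24a1 (-0.93 ± 0.33) followed, and adjusted p in S3 ran from 0.110 to 0.616.

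Whether the losartan difference itself varied along the tubule was tested with the segments of a library kept together. Of 41 members in that fit, 1 was called, against 0.00763% of 13113 genes, and this member, Cyp2d26 (ENSMUSG00000022445, chromosome 15, 82790101 to 82794294), was the one gene called in all. Its plain levels in S1 were 134 and 139 CPM in losartan libraries and 141 and 105 CPM in untreated libraries, which overlapped. In S2 they were 20.2 and 23.7 CPM in losartan libraries and 53.1 and 51.2 CPM in untreated libraries. In S3 they were 12.9 and 13.9 CPM in losartan libraries and 63.7 and 43.3 CPM in untreated libraries, so the groups stood apart in both of these segments. The log2 change was 0.22 in S1, -1.17 in S2 and -1.91 in S3, and the difference of the changes, S3 minus S1, was -2.13 on the log2 scale (adjusted p = 0.0145 for the segments together). The call was lost without losartan library 1 (log2 -2.09, adjusted p = 1.0) or losartan library 2 (-2.16, adjusted p = 0.621), with a difference of like size. It stood without cluster 6, an alternative chosen after seeing the data (adjusted p = 0.0120). No other gene of the family reached 95% identity over its transcript end. Pseudogenes and genes outside the family were not compared. Its upstream sequence is the first of those printed above.

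The neighbour Cyp2d12 had the next smallest p for such a difference (log2 0.93 in S1, 0.68 in S2 and -1.45 in S3, adjusted p = 0.353). DESeq2 called both Cyp2d26 and Cyp2d12, 2 members against 0.13% of genes. Cyp27b1 followed (log2 0.65 in S1 and -1.69 in S2, adjusted p = 0.398). At an unadjusted p under 0.05 there were 9 members of 41, and 1017 of all 13113 genes.

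Outside the proximal tubule 10 classes held at least 50 nuclei in every library and gave 260 tests of a member in a class. Of these 11 passed, all higher with losartan, and they fell on 4 members, Cyp2e1, Cyp2j13, Cyp4b1 and Cyp2j5, whose highest levels were in the proximal tubule. This was 4.23% of the members' tests, against 0.174% of all tests of a gene in these classes. DESeq2 called 22 of the 260, all higher, against 0.511% of all such tests. The passing tests lay in 4 classes. Intercalated cells gave 4 of 28 members (background 0.676% of genes), mural, mesangial and renin cells 3 of 20 (0.175%), podocytes 3 of 13 (0.214%) and the thick ascending limb 1 of 34 (0.392%). The other 6 classes gave 0 of 165 tests (background 0.049%), with 49 at an unadjusted p under 0.05 (background 6.73%) and 9 called by DESeq2 (background 0.293%).

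In intercalated cells, the acid-base cells of the collecting duct, Cyp2j13 rose to 201 and 182 CPM in losartan libraries, against 43.3 and 24.3 CPM in untreated libraries (log2 2.52 ± 0.24, adjusted p = 0.0225). Cyp2e1 rose to 131 and 94.2 CPM in losartan libraries, against 22.6 and 18.5 CPM in untreated libraries (log2 2.46 ± 0.27, adjusted p = 0.0251). Cyp4b1 (571 and 333 CPM in losartan libraries, 115 and 52.0 CPM in untreated libraries, log2 2.46 ± 0.36, adjusted p = 0.0375) and Cyp2j5 (306 and 226 CPM in losartan libraries, 111 and 65.4 CPM in untreated libraries, log2 1.61 ± 0.25, adjusted p = 0.0404) rose too. No group overlapped.

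In mural, mesangial and renin cells Cyp2j13 rose to 354 and 389 CPM in losartan libraries, against 125 and 115 CPM in untreated libraries (log2 1.64 ± 0.20, adjusted p = 0.0341). Cyp4b1 rose to 1173 and 801 CPM in losartan libraries, against 286 and 166 CPM in untreated libraries (log2 2.14 ± 0.31, adjusted p = 0.0436). Cyp2j5 rose to 719 and 589 CPM in losartan libraries, against 207 and 241 CPM in untreated libraries (log2 1.54 ± 0.21, adjusted p = 0.0367). In podocytes, the cells of the filtration barrier, Cyp4b1 rose to 282 and 191 CPM in losartan libraries, against 103 and 69.1 CPM in untreated libraries (log2 1.49 ± 0.25, adjusted p = 0.01996). Cyp2j13 rose there to 114 and 56.2 CPM in losartan libraries, against 17.4 and 17.3 CPM in untreated libraries (log2 2.28 ± 0.41, adjusted p = 0.0326). Cyp2e1 rose to 112 and 73.4 CPM in losartan libraries, against 29.0 and 17.3 CPM in untreated libraries (log2 2.03 ± 0.37, adjusted p = 0.0326). In the thick ascending limb Cyp2e1 rose to 103 and 79.4 CPM in losartan libraries, against 29.1 and 15.8 CPM in untreated libraries (log2 2.02 ± 0.27, adjusted p = 0.0331). That class took in a small cluster of 74 and 35 nuclei in losartan libraries and 5 and 5 in untreated libraries. Its part in the call was not tested.

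Set against the proximal tubule, these levels were low. In intercalated cells, where the gauge genes stood at a median of 16.8% of their tubule level, the mean was 15.6% of the tubule level for Cyp2j13, 16.6% for Cyp4b1, 11.1% for Cyp2j5 and 27.1% for Cyp2e1. In mural, mesangial and renin cells (gauge median 37.4%) it was 32.7% for Cyp2j13, 36.1% for Cyp4b1 and 26.3% for Cyp2j5. In podocytes (gauge median 12.1%) it was 9.72% for Cyp4b1, 6.91% for Cyp2j13 and 23.0% for Cyp2e1. In the thick ascending limb (gauge median 10.4%) it was 23.5% for Cyp2e1. The shares of Cyp2j13, Cyp4b1 and Cyp2j5 thus lay below the gauge median, and those of Cyp2e1 lay above it but within the gauge's range, which reached 60.5%, 64.7% and 65.8% in intercalated cells, podocytes and the thick ascending limb. On these levels alone none of the 11 is read as expression by these classes, and the source of the RNA was not tested. For Cyp2e1 so wide a range cannot tell background from a level of the class's own, and this was not tested.

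RNA of genes typical of the proximal tubule moved with these calls. The 10 gauge genes summed to 4702 and 4079 CPM in intercalated cells of losartan libraries, against 1805 and 1187 CPM in untreated libraries. In mural, mesangial and renin cells they summed to 7538 and 9374 CPM in losartan libraries, against 4382 and 2509 CPM in untreated libraries. Within proximal tubule nuclei the sums were 16370 and 14350 CPM in losartan libraries, against 13080 and 11980 CPM in untreated libraries. Kap, a gauge gene also on the sex-dependent list, was itself higher there with losartan. The gauge is thus not free of a treatment difference. All 10 gauge genes had a positive log2 change in each of the 4 classes, with medians of 1.40 (intercalated cells), 1.13 (mural, mesangial and renin cells), 0.93 (thick ascending limb) and 0.79 (podocytes). The largest gauge changes were 2.11, 1.71, 1.97 and 1.92 in the same order. Cyp2j13, Cyp2e1 and Cyp4b1 exceeded the largest in intercalated cells, as did Cyp4b1 in mural, mesangial and renin cells. So did Cyp2e1 in the thick ascending limb, and Cyp2j13 and Cyp2e1 in podocytes. The remaining calls lay below it. Over all 10 classes, gauge medians of 0.79 to 1.40 stood beside median changes of 0.20 to 0.93 for all tested members. With the 10% of nuclei richest in gauge RNA left out of each class, an alternative chosen after seeing the data, 6 of the 11 tests still passed and all 11 stayed higher. Without losartan library 1, 3 of the 11 still passed. The part of proximal tubule RNA in these calls beyond that was not tested. Genes of the surrounding lists were called in the same classes. In intercalated cells they included the regulators Nr1h4 (log2 1.98), Ppara (1.41) and Ghr (1.54), and in the thick ascending limb Tef (0.75) and Ltc4s (-2.07), with Ltc4s also called in the distal convoluted tubule (-1.20). The others called were genes of the gauges and of the sex-dependent list, such as Kap, Acsm2 and Slco1a1.

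**Figure D4:**
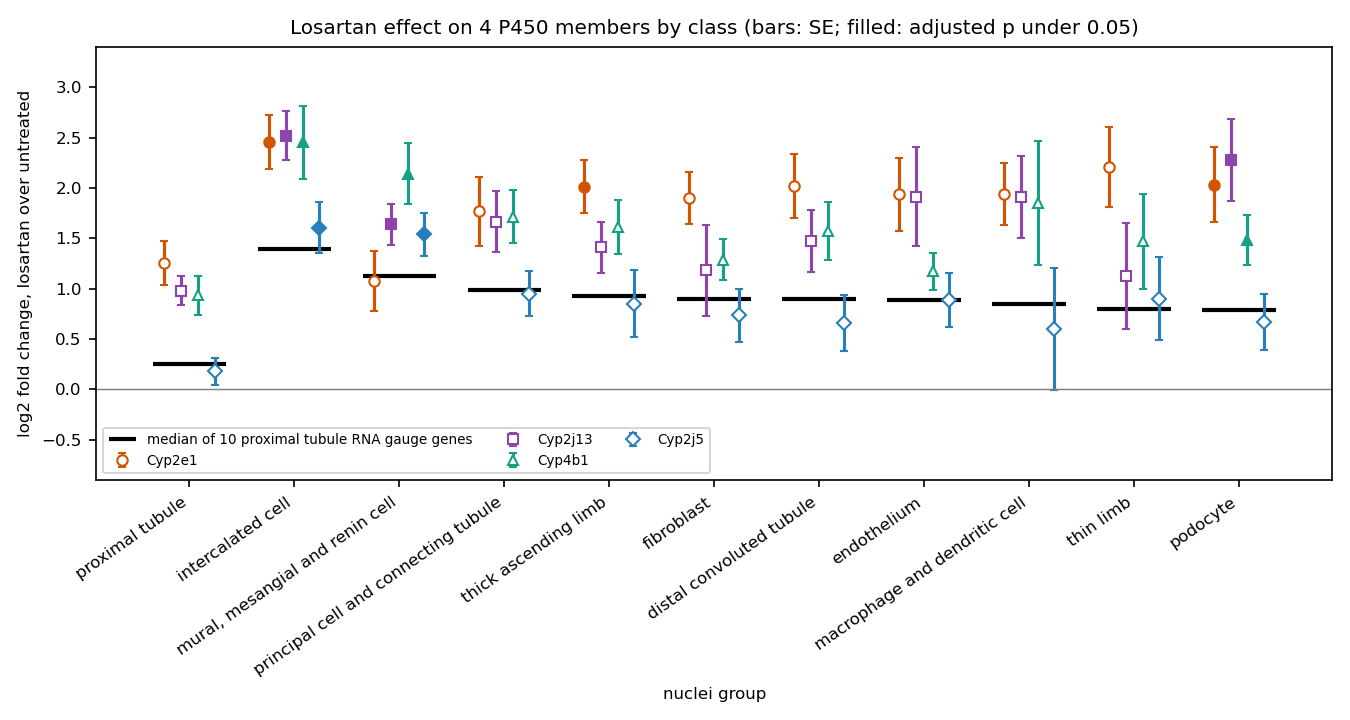
Log2 fold change, losartan over untreated, of Cyp2e1, Cyp2j13, Cyp4b1 and Cyp2j5 (points with bars of 1 SE, filled where the adjusted p was under 0.05) in proximal tubule nuclei and 10 other classes, ordered by the median log2 change of 10 proximal tubule RNA gauge genes (black lines). The gauge lines lie at 0.25 in the proximal tubule and between 0.79 and 1.40 elsewhere, and the 11 filled points lie in intercalated cells, mural, mesangial and renin cells, the thick ascending limb and podocytes.

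Of the 23 members highest in a class other than the proximal tubule and injured proximal tubule, 15 could be tested in at least 1 of the 10 classes, and none of them was called in any. Their log2 changes were positive in every class tested for 2, negative in every one for 4 and of both signs for 9. Those positive throughout were Cyp27a1 (9 classes, log2 0.10 to 1.33) and Cyp26b1 (4 classes, 0.38 to 1.53). Those negative throughout were Cyp4v3 (7 classes, -1.22 to -0.07), Cyp2r1 (3 classes, -0.89 to -0.16), and Cyp4f18 (-1.53) and Cyp3a13 (-0.45) in 1 class each. Of both signs were Cyp1b1 (7 classes, -0.49 to 1.42), Cyp20a1 (10 classes, -0.87 to 0.86), Cyp2d22 (9 classes, -0.75 to 1.20), Cyp39a1 (7 classes, -0.19 to 0.83), Cyp46a1 (3 classes, -0.08 to 0.51), Cyp2s1 (6 classes, -0.27 to 0.40), Cyp2u1 (5 classes, -0.34 to 0.11), Cyp4f13 (10 classes, -0.42 to 0.27) and Cyp4f16 (7 classes, -0.71 to 0.04). Among members held highest in the tubule, Cyp4a14 had a negative value in all 8 classes where it was tested (log2 -1.98 to -0.56, none called), while Cyp2e1, Cyp2j13, Cyp4b1 and Cyp2j5 had positive values in all 10 (log2 0.60 to 2.52 together).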

How the data were processed

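Single-nucleus RNA was measured in 2 losartan and 2 untreated kidney libraries. The deposited matrices hold raw UMI counts per gene and nucleus, made with Cell Ranger 5.0.0 per the file headers. The submitters' processing notes name mm10 and Bowtie 0.12.2 with no role, and the sources used here do not give the strand setting or the use of intronic reads. Libraries held 42290414 to 59078762 UMIs.

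Nuclei with at least 500 UMIs, 300 genes and at most 10% mitochondrial UMIs were kept. Scrublet's automatic threshold marked under 0.5% of nuclei in 3 libraries, so there the highest doublet scores were removed at 0.8% per 1000 nuclei. In untreated library 1 the automatic call was kept, which marked 7.69% of nuclei (717). Over all libraries 3141 nuclei were removed as doublets and 510 for mitochondrial UMIs. Nuclei were clustered with scanpy 1.11.5 (3000 variable genes without P450 genes of the pattern, 30 principal components, 15 neighbours, Leiden resolution 1.0) and named from marker genes. The proximal tubule was clustered again within each library. Segment levels of members under 100 UMIs in the tubule were not ranked.

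UMIs were summed per library and nuclei group and tested with edgeR 4.0.16 (R 4.3.3; TMM, filterByExpr, quasi-likelihood test, Benjamini-Hochberg adjustment over all genes in the fit). Classes needed 50 nuclei in every library. The segment test was an interaction of segment with treatment, with the library as a block. Alternatives were DESeq2 1.42.0, RLE size factors, no filter, doublets kept, each library left out and a replicate block. With 2 libraries against 2, an exact permutation test of a single value cannot go below p = 0.333. The fitting steps were tested on simulated data.

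Named were all members called, the 5 with the smallest p on either side in the whole kidney, the tubule and its segments, the most abundant 10, the 5 highest and lowest S3 over S1 ratios, the member highest relative to the tubule in each class, and the vitamin D and Cyp4a enzymes. The members and lists were chosen with earlier results of these data known.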

Additional observations from a re-analysis of the deposited data

Results flagged for a closer look

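The losartan difference of Cyp2d26 varied between proximal tubule segments by the test of the difference itself. The change in S3 minus the change in S1 was -2.13 on the log2 scale (edgeR quasi-likelihood test, Benjamini-Hochberg adjusted p = 0.0145). In S3 both losartan libraries stood below both untreated ones, and in S1 the groups overlapped. The call was lost when either losartan library was left out, with a difference of like size. Segments were named unevenly between libraries, as given above, and the part of this in the result was not tested. Among the S3 markers, Slc7a13 and Acsm3 were themselves higher in proximal tubule nuclei of the losartan libraries at an unadjusted p under 0.05. Values of the other S3 markers, and of these genes within S3-like nuclei, are not given here. Slc7a12 and Prlr, leading genes of the S3-like cluster, were lower in proximal tubule nuclei. The part of these genes in the Cyp2d26 result was not tested.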

How the results depend on the processing

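The count of members called in the whole kidney was 0 under RLE size factors, without a filter, with doublets kept and without each library, 15 with DESeq2 (8.91% of all genes) and 20 with the replicate block (12.3%). In proximal tubule nuclei it was 8 with DESeq2 (1.97% of genes), 1 without a filter (0.176%), 2 with the replicate block (0.445%) and 0 to 9 with a library left out (9 without losartan library 2, against 1.77% of genes). Outside the tubule 11 tests passed in the main analysis (0.174% of all gene tests), 22 with DESeq2 (0.511%), 56 without a filter (1.28%), 50 with the replicate block (1.6%) and 3 to 82 with a library left out (3 when losartan library 1 was dropped, against 0.0314%, and 82 and 31 when untreated library 1 or 2 was, against 4.36% and 1.25%). The 11 passing tests stayed higher in every setting run. Of the 11, RLE size factors called 11, DESeq2 called 9, the analysis with doublets kept called 6 and the one without losartan library 2 called 10. The segment difference was called for 2 members with DESeq2 (0.13% of genes), 7 without a filter (1.01%) and 0 to 14 with a library left out (0 when either losartan library was dropped, 14 and 6 when untreated library 1 or 2 was, against 5.95% and 0.584%). A library left out leaves its group with 1 library, which is assumed to vary like the other group. In proximal tubule nuclei the sign turned for Cyp24a1 (0.059 without cluster 6, and -0.50 to 0.22 with a library left out), Cyp27b1 (0.041 without cluster 6, and -0.85 to 0.43 with a library left out) and Cyp2r1 (0.005 without a filter, and -0.23 to 0.18 with a library left out), on the log2 scale and with none of these passing the test. Members highest in a tubule segment numbered 29, against 30 with coarser clusters and 27 with doublets kept. Libraries of the same number deviated together (r = 0.352 across 18410 genes, which are not independent), but no label ties the numbers, so the pairing is not used. No cause of these shifts was tested. Depth limits members of a few UMIs per library, such as Cyp27b1 in S3, and a group of 2 libraries limits every p.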
